A study of Mus musculus with 6 samples.

Results

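Phagocytes such as macrophages take up pathogens, dying cells and cell debris through surface receptors, digest the cargo in lysosomes and attack it with reactive oxygen from the NADPH oxidase. The genes described here are 44 that encode this equipment. They were chosen by function as a fixed list of symbols, with earlier results of these data known. All 44 were among the 23279 named genes measured on the arrays. They fall into 8 groups: 6 C-type lectins, 3 Fc receptors, 4 scavenger receptors, 5 Toll-like receptor genes with the co-receptor Cd14, 11 other surface proteins, 4 oxidase subunits, 8 lysosome and phagosome proteins, and 3 cytosolic or microsomal proteins.

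Total RNA of whole mouse fetal livers at embryonic day 11.5 was measured on 6 Affymetrix arrays, 3 of livers labelled Stab2Cre;Gata4 knockout and 3 of control livers labelled Stab2Cre;Gata4 heterozygous. In the stated cross, Stab2-Cretg/wt;Gata4fl/wt mice were mated to Gata4fl/fl mice, so both labels name the Stab2-Cre transgene, whose promoter belongs to a scavenger receptor gene of sinusoidal endothelium. The labels call the replicates biological and do not state whether livers were pooled or came from one litter. The p-values measure the spread between these arrays only. The macrophage is not the labelled target of the Cre, and fetal liver at this stage holds macrophages, which digest the nuclei expelled by maturing red cells, beside hepatoblasts, endothelium, mesenchyme and many blood progenitors.

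The hepatoblast genes Afp and Alb read between 13.29 and 13.51 in all arrays on a log2 scale that ended at 13.9. Both are among the brightest genes. Sorted values are identical in the 6 arrays, so this closeness does not measure hepatoblast content. Gata4 was higher in the livers labelled knockout (10.42 ± 0.19 against 9.91 ± 0.05, SD, n = 3; limma adjusted p = 0.0409), so it does not check the labels, and directions rest on them. The labels do not say where its probes lie. Embryo sex was unequal: Xist, the RNA of the inactive X, read at least 10.19 in 4 arrays, those labelled knockout and control replicate 2. It read 3.58 and 3.96 in the other two. Values against control replicate 2 alone, the one control with high Xist, are therefore given beside the main ones.

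Phagocyte genes were lower in the livers labelled knockout. Of the 44, 22 fell past the threshold, a limma p of 0.05 after Benjamini-Hochberg adjustment over all genes, and 0 rose (also 0 at an unadjusted p of 0.05 by limma). The fall was called for 2.77% of all genes and the rise for 3.59%. At an unadjusted p of 0.05 by limma, 2667 of all 23279 genes were lower and 2578 higher. In 42 the log2 difference was negative, with a median of −0.76 over the 44 against −0.01 over all genes tested. Adgre4, Clec4a1, Igsf6 and Slc11a1 fell most, each at least 3-fold. In 33 of the 44, all 3 livers labelled knockout read below all 3 controls, as did 14.3% of all genes. Because the 44 were chosen with earlier results known, these shares and medians describe the genes and are not a test of them. An RNA share in a mixed tissue was measured, so fewer phagocytes and less of these RNAs per phagocyte cannot be told apart.

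**Figure D1:**
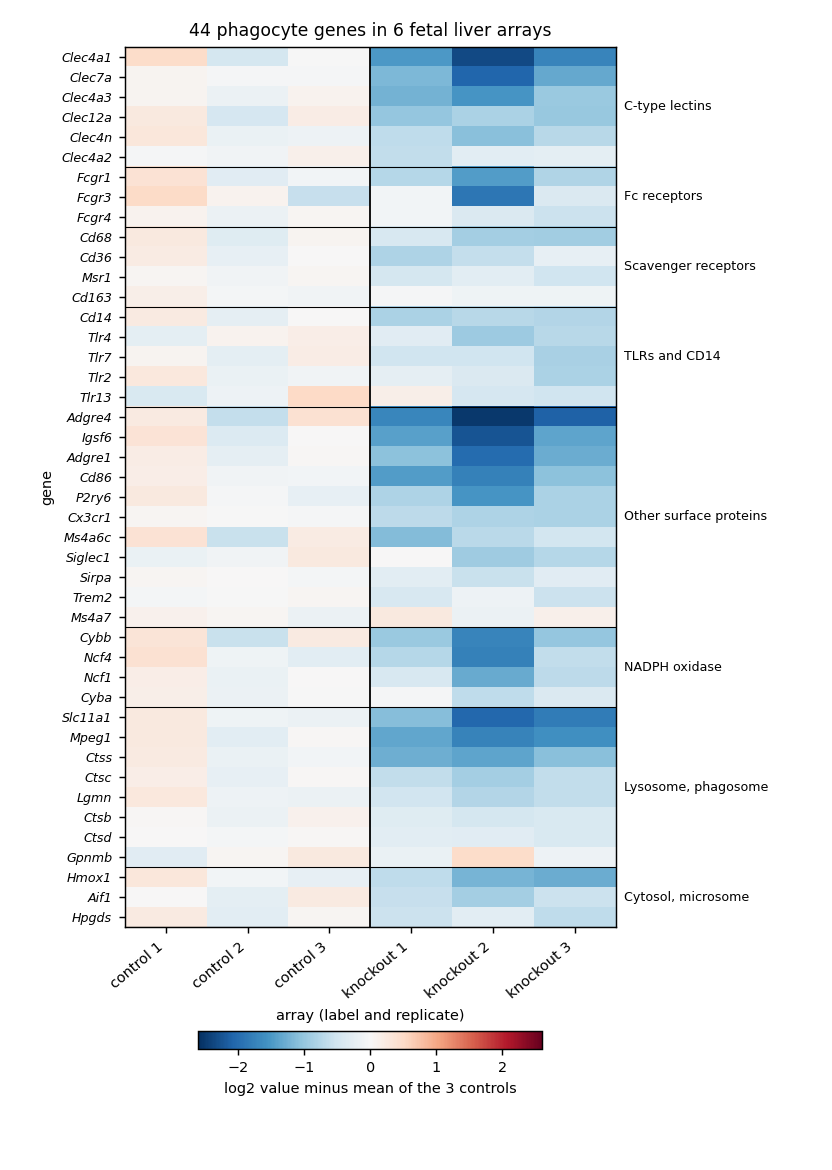
Heat map of 44 phagocyte genes (rows, by functional group and then by size of the difference) in 6 arrays (columns); colour is the log2 value minus the mean of the 3 controls. Blue (lower) fills most of the 3 columns labelled knockout and is deepest in replicate 2, whose median over the genes was −0.88, while Ms4a7 and Gpnmb stay near the control level.

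The shift was present in each array. The median of the 44 genes, as log2 value minus the control mean, was −0.63, −0.88 and −0.72 in labelled knockout replicates 1, 2 and 3, and 0.19, −0.15 and 0.02 in control replicates 1, 2 and 3. Labelled knockout replicate 2 was the lowest of its group for 27 of the 44 genes, against 35.9% of all genes. Among controls, replicate 1 was the highest for 31 of the 44, against 33.6% of all genes. Control replicate 2 was the lowest for 29, against 33.8%, and the highest for 0, against 33.8%. The control with high Xist was thus also the one with the lowest phagocyte genes, and sex and other differences between single control livers cannot be told apart here.

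Against control replicate 2 alone, the median of the 44 genes was −0.50, and 42 were again negative. All 3 livers labelled knockout read below that control for 34 of the 44, as was so for 31% of all genes. The 34 include all 22 that fell, but those were called in a fit that held this control, which favours that outcome. The 22 differences were each smaller than against 3 controls, and none shrank to under 50% of its size. With sex as a term in the limma fit the differences are, by construction, those against control replicate 2. In that fit 0 of the 44 passed, as did 0% of all genes in the lower direction. Leaving out 1 array also removed calls: 8 genes passed without labelled knockout replicate 3, 11 without control replicate 1 and 2 without control replicate 3. By contrast, 21, 17 and 16 passed without labelled knockout replicates 1 and 2 and control replicate 2. Calls were lost across the whole array too. Over all genes 87, 255, 16, 610, 301 and 155 fell in these fits, in the same order, against 644 in the main fit. Ctss and Mpeg1 passed in all 6 of these fits, narrowly without control replicate 3 (limma adjusted p = 0.049 for each).

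**Figure D2:**
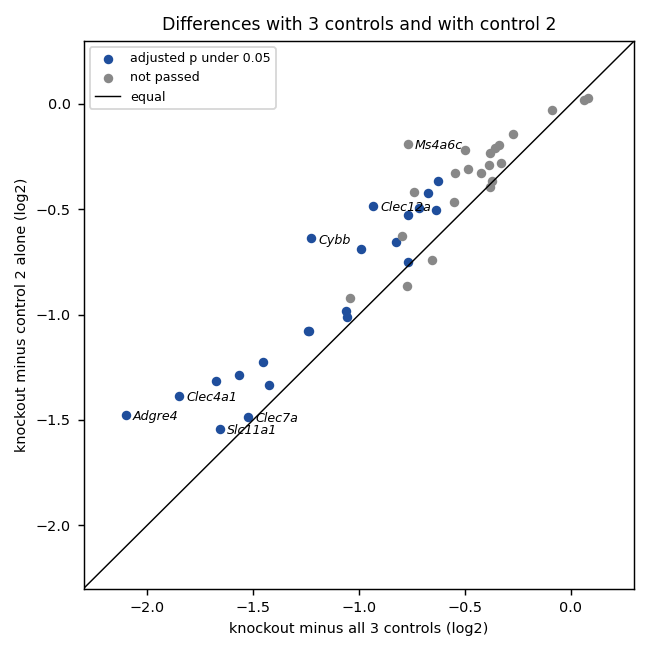
Each point is 1 of 44 phagocyte genes; the x axis is the log2 difference between labelled knockout and all 3 controls, the y axis the difference from control replicate 2 alone, and the line marks equality. The 22 genes that passed (blue) lie above the line, so each difference is smaller against control 2, but all stay below 0, between −1.54 and −0.37.

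The 4 genes with the largest falls read as follows. Adgre4, an adhesion receptor of the F4/80 family, read 6.67, 5.82 and 6.84 in control replicates 1, 2 and 3 and 4.75, 3.93 and 4.35 in the labelled knockouts, a 4.29-fold fall (−2.10, SE 0.29, limma adjusted p = 0.0128). Clec4a1, a lectin of the DCIR family, read 6.74, 5.80 and 6.25 against 4.78, 3.91 and 4.55, a 3.6-fold fall (−1.85, SE 0.28, limma adjusted p = 0.0153). In both genes the lowest control stood more than 1 log2 unit above the highest labelled knockout. Igsf6, an immunoglobulin-type membrane protein, read 9.87, 9.15 and 9.51 against 8.10, 7.27 and 8.13, a 3.2-fold fall (−1.68, SE 0.26, limma adjusted p = 0.0163). Slc11a1, the metal transporter of the phagosome membrane also called NRAMP1, read 8.38, 8.0 and 7.97 against 7.01, 6.07 and 6.30, a 3.15-fold fall (−1.66, SE 0.23, limma adjusted p = 0.0132). Against control replicate 2 alone the 4 differences were −1.48, −1.39, −1.32 and −1.54.

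Because these genes fell together, the promoters of the same 4 are shown, as 250 bases before the start site that RefSeq lists on GRCm38.p6, 5′ to 3′ on the gene's strand. Capitals mark GAGGAA or its reverse complement, the core of the box bound by PU.1, the transcription factor of myeloid cells. The windows are chr17:55749734-55749983 (plus strand) for Adgre4, chr6:122921598-122921847 (plus) for Clec4a1, chr7:121074531-121074780 (minus) for Igsf6 and chr1:74374953-74375202 (plus) for Slc11a1.
Adgre4: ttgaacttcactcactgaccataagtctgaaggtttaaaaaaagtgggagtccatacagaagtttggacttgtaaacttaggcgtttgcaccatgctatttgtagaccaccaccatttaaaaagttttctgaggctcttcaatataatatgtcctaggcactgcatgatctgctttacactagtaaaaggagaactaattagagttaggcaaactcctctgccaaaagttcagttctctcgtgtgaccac
Clec4a1: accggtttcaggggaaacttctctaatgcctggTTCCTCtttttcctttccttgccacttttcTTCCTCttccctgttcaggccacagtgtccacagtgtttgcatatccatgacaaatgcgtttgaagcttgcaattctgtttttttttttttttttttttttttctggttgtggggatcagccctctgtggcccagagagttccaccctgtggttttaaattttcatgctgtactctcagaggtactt
Igsf6: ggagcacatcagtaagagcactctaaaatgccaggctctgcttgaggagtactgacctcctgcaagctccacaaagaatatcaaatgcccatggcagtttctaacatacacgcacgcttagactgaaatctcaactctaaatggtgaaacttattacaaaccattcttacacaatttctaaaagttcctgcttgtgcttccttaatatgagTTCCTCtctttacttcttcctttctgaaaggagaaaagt
Slc11a1: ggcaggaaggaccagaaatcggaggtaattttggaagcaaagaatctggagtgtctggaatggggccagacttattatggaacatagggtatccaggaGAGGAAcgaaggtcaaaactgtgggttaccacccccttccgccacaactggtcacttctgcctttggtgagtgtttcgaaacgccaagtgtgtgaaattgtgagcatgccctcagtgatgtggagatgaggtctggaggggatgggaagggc

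Clec4a1 has 2 matches, Igsf6 and Slc11a1 1 each, and the match of Adgre4 lies in the 50 bases after its start, which are not printed. The RefSeq promoter table held 31 of the 44 genes, and motifs were counted on both strands of the 300-base windows, a gene counting once if any of its windows matched. GAGGAA was found in 19 of the 31 (61.3%), against 31.3% of the 27025 genes with a promoter in the table. It was found in 12 of 15 such genes that fell and in 7 of 16 that did not pass. AGGAAGT, the PU.1 sequence chosen beforehand, can overlap GAGGAA by 5 bases. It was found in 7 of the 31 (22.6%), against 10.7%. AGATAA or TGATAA, the sequences GATA factors bind, was found in 5 of the 31 (16.1%), against 21%. TCACGTGA, the core of the element that TFEB binds in lysosomal genes, was found in 1, Ctsd (3.23%), against 1.12%. Among the 17466 tested genes with a promoter, shares were 30.2% for GAGGAA, 10.4% for AGGAAGT, 17.6% for AGATAA or TGATAA and 1.47% for TCACGTGA. GAGGAA was added after AGGAAGT had been counted. AGGAAGT was found in 4 of the 15 genes that fell and in 3 of the 16 that did not pass. For AGATAA or TGATAA these counts were 3 and 2, and for TCACGTGA 0 and 1. A match describes letters in a window and not a site in use.

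C-type lectins, which bind sugars and other ligands on microbes and dead cells, fell in 5 of 6 cases with a median of −1.08. Clec7a, the beta-glucan receptor Dectin-1, read 6.42, 6.31 and 6.32 in controls and 5.19, 4.28 and 5.01 in the labelled knockouts (−1.52, SE 0.21, limma adjusted p = 0.0128). The controls lay within 0.06 (SD) while the labelled knockouts spread over 0.48. Clec4a3 read 4.81, 4.58 and 4.83 against 3.52, 3.21 and 3.78 (−1.23, SE 0.15, limma adjusted p = 0.0105). Clec12a, an inhibitory receptor for signals of dead cells, read 6.51, 5.81 and 6.45 against 5.25, 5.44 and 5.27 (−0.93, SE 0.18, limma adjusted p = 0.0299), and −0.48 against control replicate 2 alone. Clec4n, the mannan receptor Dectin-2, read 5.17, 4.71 and 4.75 against 4.22, 3.78 and 4.16 (−0.82, SE 0.16, limma adjusted p = 0.0308). Clec4a2, whose product carries an inhibitory motif, did not pass (−0.39, adjusted p = 0.119). In none of the 6 lectins did the groups overlap.

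The lectin genes lie in clusters on chromosome 6, and their neighbours, taken here by position after their values were known, did not all move. Between Clec4a1 and Clec4n the order of measured genes is Clec4a1, Clec4a3, Clec4a4, Clec4b1, Clec4a2, Clec4b2 and Clec4n, with differences of −1.85, −1.23, −0.05, −0.15, −0.39, −0.31 and −0.82. The 3 that are not among the 44 read at most 3.72 in the control mean, within the dimmest 25% of genes, which ends at 3.73. Between Clec12a and Clec7a lie Clec12b (0.26), Clec1b (0.03), Clec9a (0.39) and Clec1a (0.10), none of which passed, and Clec1b, a platelet receptor, read 7.97 and 8.0 in the group means. Close paralogs of this family can share probe sequence, so the split between them is uncertain. Of 20 other C-type lectins, 2 fell and 0 rose by limma (also 0 at an unadjusted p of 0.05; median −0.06), the mannose receptor Mrc1 (−1.06, limma adjusted p = 0.0074) and Clec5a (−1.07, limma adjusted p = 0.0341), and next by p came Clec4b2 (−0.31, adjusted p = 0.125).

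Fc receptors bind antibody-coated particles. Fcgr1, the high-affinity receptor for IgG, read 7.85, 7.18 and 7.40 against 6.73, 6.03 and 6.70 (−0.99, SE 0.23, limma adjusted p = 0.0442), and in none of the 6 fits without 1 array did it pass. Fcgr3, a low-affinity receptor, read 7.66, 7.25 and 6.55 against 7.09, 5.27 and 6.78, so its groups overlapped, and only labelled knockout replicate 2 lay below every control (−0.77, SE 0.46, adjusted p = 0.391). Fcgr4 did not pass (−0.34, adjusted p = 0.198), nor did the inhibitory receptor Fcgr2b, its neighbour on chromosome 1 (−0.41, adjusted p = 0.383). Of 11 genes of Fc receptor signalling, 3 fell and 0 rose by limma (also 0 at an unadjusted p of 0.05; median −0.70), the kinases Btk (−0.96, limma adjusted p = 0.0207) and Syk (−0.94, limma adjusted p = 0.0281) and the exchange factor Vav1 (−0.82, limma adjusted p = 0.0223).

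**Figure D3:**
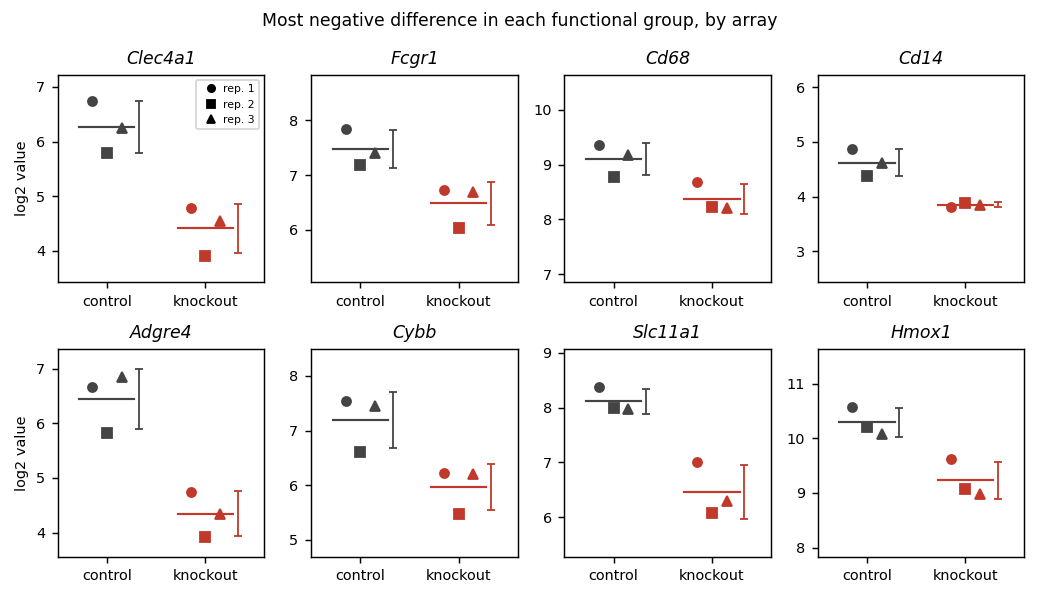
Log2 values by array of the gene with the most negative difference in each of the 8 functional groups; symbols mark replicates 1 to 3, lines the group mean and bars the SD (n = 3), and every panel spans the same number of log2 units. In all 8 panels the 3 labelled knockout values lie below the 3 control values; Cd68 did not pass the test (adjusted p = 0.0518).

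No scavenger receptor passed, although all 4 differences were negative (median −0.49; 3 at an unadjusted p of 0.05 by limma). Cd68, a glycoprotein of late endosomes, read 9.35, 8.78 and 9.18 in controls and 8.68, 8.22 and 8.20 in the labelled knockouts, without overlap (−0.74, SE 0.18, adjusted p = 0.0518). Msr1, scavenger receptor A, read 6.55, 6.41 and 6.56 against 6.04, 6.23 and 5.98, also without overlap (−0.43, SE 0.10, adjusted p = 0.0509). Both stood just outside the threshold, and both passed with the dimmest 25% of genes left out. Cd36, a fatty acid receptor also found on endothelium and platelets, overlapped at 6.36 and did not pass (−0.54, adjusted p = 0.103). Cd163, the receptor for haemoglobin bound to haptoglobin, was in the dimmest 25% of genes and read 3.61 ± 0.13 and 3.52 ± 0.05 (SD, n = 3; adjusted p = 0.687).

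Among 25 other scavenger and engulfment receptors and bridging proteins, 9 fell and 0 rose (3 at an unadjusted p of 0.05 by limma), with a median of −0.30. The first by p were Marco (−1.12, limma adjusted p = 0.00813), a scavenger receptor of class A like Msr1, the phosphatidylserine receptor Timd4 (−1.48, limma adjusted p = 0.00827) and the complement subunit C1qb (−1.27, limma adjusted p = 0.0126).

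Toll-like receptors sense microbial products. Cd14, the co-receptor for lipopolysaccharide, read 4.86, 4.38 and 4.62 against 3.80, 3.89 and 3.85 (−0.77, SE 0.13, limma adjusted p = 0.0195). Tlr7, an X-linked receptor for single-stranded RNA, read 5.28, 4.95 and 5.40 against 4.70, 4.69 and 4.36 (−0.62, SE 0.15, limma adjusted p = 0.0474). The lowest Tlr7 control was replicate 2, the difference against it alone was −0.37, and no fit without 1 array kept the call. Tlr4, the lipopolysaccharide receptor (−0.65, adjusted p = 0.0744), and Tlr2, the receptor for bacterial lipopeptides (−0.48, adjusted p = 0.152), did not pass, though neither overlapped. Tlr13, a receptor for bacterial ribosomal RNA and also X-linked, read 4.36, 4.63 and 5.28 against 4.90, 4.32 and 4.23, with overlap (−0.27, adjusted p = 0.619).

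Of 22 other genes of the Toll-like receptor family and its signalling, 3 fell and 1 rose (8 and 3 at an unadjusted p of 0.05 by limma; median −0.21). The 3 were Unc93b1 (−1.22, SE 0.13, limma adjusted p = 0.00821), which carries Tlr7, Tlr13 and other receptors to endosomes, and the partners Cd180 (−1.24, limma adjusted p = 0.0116) and Ly86 (−0.94, limma adjusted p = 0.0351), a receptor complex. The gene that rose, Tlr5, was outside the naming rule and is named because it was the only rise past the threshold (0.56, limma adjusted p = 0.0352).

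Other surface proteins included the most negative difference of the 44 genes and also 1 of the 2 positive ones. Of the 11, 6 fell (median −0.77): Adgre4, Igsf6, Adgre1, Cd86, P2ry6 and Cx3cr1. Adgre1, which encodes the macrophage antigen F4/80, read 7.26, 6.84 and 7.10 in controls and 6.0, 5.07 and 5.77 in the labelled knockouts, a 2.73-fold fall (−1.45, SE 0.23, limma adjusted p = 0.017). Cd86, a costimulatory ligand for T cells, read 5.96, 5.70 and 5.73 against 4.34, 4.04 and 4.73, a 2.69-fold fall (−1.43, SE 0.17, limma adjusted p = 0.00983). Cx3cr1, the fractalkine receptor of monocytes and tissue macrophages, read 7.86, 7.79 and 7.78 against 7.13, 7.0 and 6.98 (−0.77, SE 0.09, limma adjusted p = 0.00932). Its standard error was the smallest among the 22 genes that fell, and the difference against control replicate 2 alone was −0.75. P2ry6, a receptor for extracellular UDP, read 7.27, 6.98 and 6.81 against 6.22, 5.49 and 6.19 (−1.05, SE 0.21, limma adjusted p = 0.0305).

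The remaining 5 surface genes did not pass. Ms4a6c, a tetraspan protein, read 5.69, 4.74 and 5.52 against 4.18, 4.62 and 4.84 (−0.77, adjusted p = 0.128), and its difference from control replicate 2 alone was −0.19. Siglec1, the sialic acid receptor sialoadhesin, overlapped because labelled knockout replicate 1 read 5.41, above 2 of the 3 controls (−0.55, adjusted p = 0.218). Sirpa, the inhibitory receptor for CD47 (−0.38, adjusted p = 0.0767), and Trem2, a lipid receptor that signals through DAP12 (−0.37, adjusted p = 0.117), did not overlap. Ms4a7 was in the dimmest 25% of genes and read 3.63 ± 0.14 and 3.72 ± 0.20 (SD, n = 3; adjusted p = 0.792). Of 15 genes of the DAP12 adaptor and TREM family, 3 fell and 0 rose by limma (also 0 at an unadjusted p of 0.05; median −0.27, and −0.02 against control replicate 2 alone): Tyrobp, which encodes DAP12 itself (−1.06, limma adjusted p = 0.0195), the platelet gene Treml1 (−1.06, limma adjusted p = 0.0197) and Treml4 (−1.01, limma adjusted p = 0.0374).

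The phagocyte NADPH oxidase joins a membrane core of CYBB and CYBA with cytosolic subunits. Cybb, the X-linked gene of the catalytic subunit, read 7.54, 6.61 and 7.44 in controls and 6.23, 5.48 and 6.20 in the labelled knockouts, a 2.34-fold fall (−1.23, SE 0.28, limma adjusted p = 0.0434). The control with high Xist was the lowest of the controls, and against it alone the difference was −0.64. Ncf4 (−1.04, SE 0.30, adjusted p = 0.0796) and Ncf1 (−0.80, SE 0.22, adjusted p = 0.0696), which encode the cytosolic subunits p40phox and p47phox, did not pass and did not overlap. Both were lowest in labelled knockout replicate 2, at 4.74 and 6.48. Cyba, whose product also serves other oxidases, read 8.90, 8.60 and 8.73 against 8.71, 8.08 and 8.37, with overlap (−0.36, adjusted p = 0.248). Of 10 other oxidase genes, 1 fell, Rac2 (−0.83, limma adjusted p = 0.0295), the GTPase that activates the phagocyte oxidase, and 0 rose (1 at an unadjusted p of 0.05, Nox4: 0.54, adjusted p = 0.051), with a median of 0.05; the next by p was Noxo1 (0.33, adjusted p = 0.235).

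**Figure D4:**
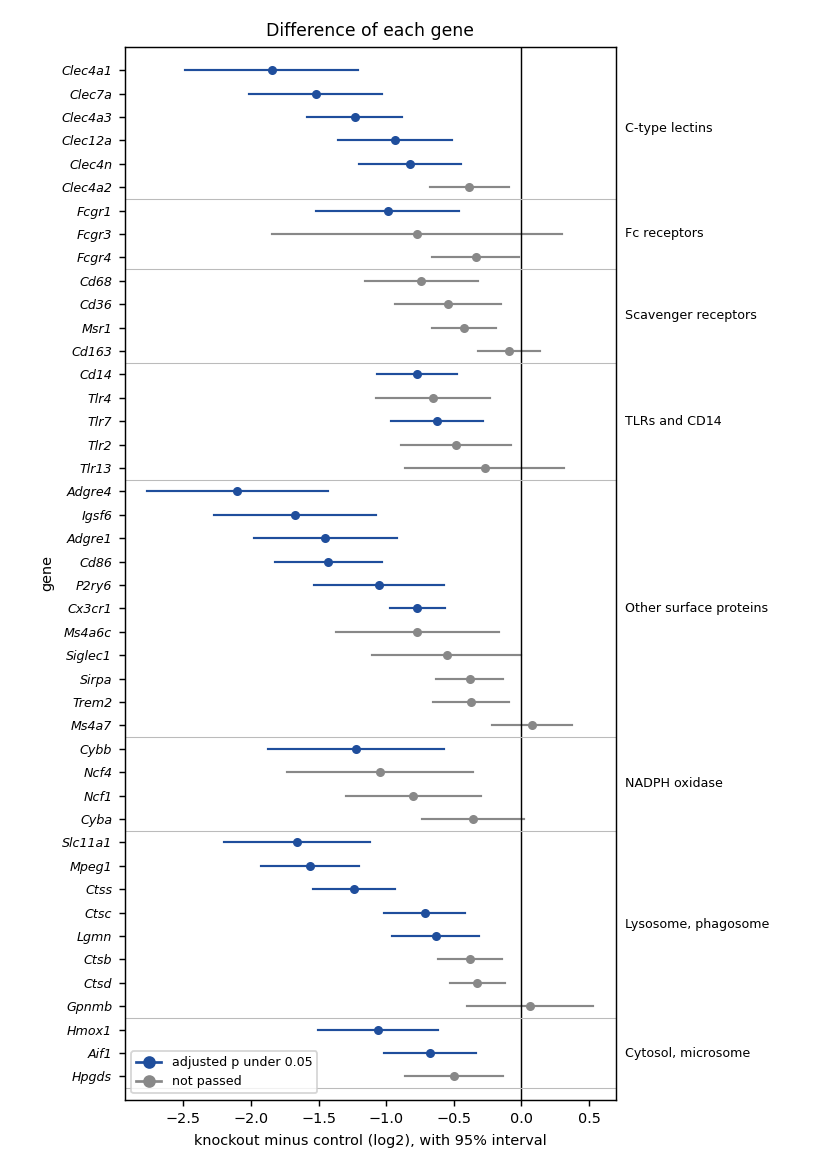
Log2 difference (labelled knockout minus control; points) with its unadjusted 95% interval (lines) for 44 phagocyte genes by functional group; blue marks an adjusted p under 0.05 and grey the rest. The 22 blue genes run from −0.62 (Tlr7) to −2.10 (Adgre4), and the intervals of Ms4a7, Gpnmb, Tlr13, Fcgr3, Cyba and Cd163 include 0.

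Lysosome and phagosome genes fell in 5 of 8 cases with a median of −0.68. Besides Slc11a1, Mpeg1, a pore-forming protein of the phagosome, read 7.18, 6.64 and 6.95 against 5.57, 5.18 and 5.32, a 2.96-fold fall (−1.56, SE 0.16, limma adjusted p = 0.0074), the smallest adjusted p of the 44. Ctss, cathepsin S, which processes the invariant chain in antigen-presenting cells, read 7.78, 7.37 and 7.46 against 6.27, 6.17 and 6.45 (−1.24, SE 0.13, limma adjusted p = 0.00821). Both genes passed in all 6 fits without 1 array, with a limma adjusted p of at most 0.049. Ctsc, the protease that activates granule serine proteases, read 9.68, 9.28 and 9.54 against 8.86, 8.62 and 8.86 (−0.72, SE 0.13, limma adjusted p = 0.0247). Lgmn, the asparagine-specific endopeptidase legumain, read 9.49, 9.07 and 9.06 against 8.71, 8.44 and 8.56 (−0.63, SE 0.14, limma adjusted p = 0.0401).

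The broadly expressed proteases showed small differences. Ctsb read 12.06, 11.88 and 12.15 against 11.72, 11.58 and 11.64 (−0.38, SE 0.10, adjusted p = 0.0679), and Ctsd read 10.94, 10.88 and 10.95 against 10.65, 10.62 and 10.52 (−0.33, SE 0.09, adjusted p = 0.0672). Neither overlapped nor passed, and both passed with the dimmest 50% of genes left out. Gpnmb, a membrane glycoprotein of lysosomes, read 4.24, 4.59 and 4.80 against 4.38, 5.02 and 4.42 and did not differ beyond its spread (0.06, 95% interval −0.40 to 0.53).

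Of 44 general lysosome genes outside the list, such as hydrolases, membrane proteins and proton pump subunits, 0 fell (3 at an unadjusted p of 0.05 by limma) and 1 rose (5 at an unadjusted p of 0.05), Ctsf (0.57, limma adjusted p = 0.0482), with a median of −0.01. Over all 23279 genes, 2667 were lower and 2578 higher at that unadjusted p. Next by p in the list were Npc1 (0.29, adjusted p = 0.101) and the leukocyte lysosomal protein Laptm5 (−0.54, adjusted p = 0.101). The summed linear level of these genes overlapped between the groups, at 29637 to 31655 in controls and 28274 to 31198 in the labelled knockouts. That of the 8 lysosome and phagosome members did not, at 7360 to 8489 and 5593 to 6144. The brightest of the 8, Ctsb and Ctsd (control means 12.03 and 10.92), weigh most in this sum, and neither passed.

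The 3 remaining genes act in the cell interior. Hmox1, the heme oxygenase that opens the heme ring, read 10.58, 10.21 and 10.08 against 9.62, 9.08 and 8.99, a 2.09-fold fall (−1.06, SE 0.19, limma adjusted p = 0.0246). Aif1, the actin-binding protein IBA1, read 6.03, 5.76 and 6.24 against 5.41, 5.13 and 5.46 (−0.68, SE 0.15, limma adjusted p = 0.0377). Hpgds, a prostaglandin D2 synthase, overlapped in 1 array of each group and did not pass (−0.50, adjusted p = 0.106). Of 16 other heme and prostaglandin enzymes and their regulators, 6 fell and 0 rose by limma (also 0 at an unadjusted p of 0.05; median −0.30). Both biliverdin reductase genes were among them, Blvra (−0.89, limma adjusted p = 0.0213) and Blvrb (−0.74, limma adjusted p = 0.03), as was Alox5ap of leukotriene synthesis (−1.10, limma adjusted p = 0.0295).

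Of 18 myeloid transcription factors and colony-stimulating factor genes, 9 fell and 0 rose by limma (also 0 at an unadjusted p of 0.05), with a median of −0.53. Spic, a factor of red pulp and other iron-recycling macrophages, fell by 1.80 (SE 0.20, limma adjusted p = 0.00911), Tfec by 1.55 (limma adjusted p = 0.00821) and the sterol receptor Nr1h3 by 1.11 (limma adjusted p = 0.0096). Spi1, the gene of PU.1, is outside the naming rule and is given because its motif was counted above: it fell by 1.06 (limma adjusted p = 0.018).

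**Figure D5:**
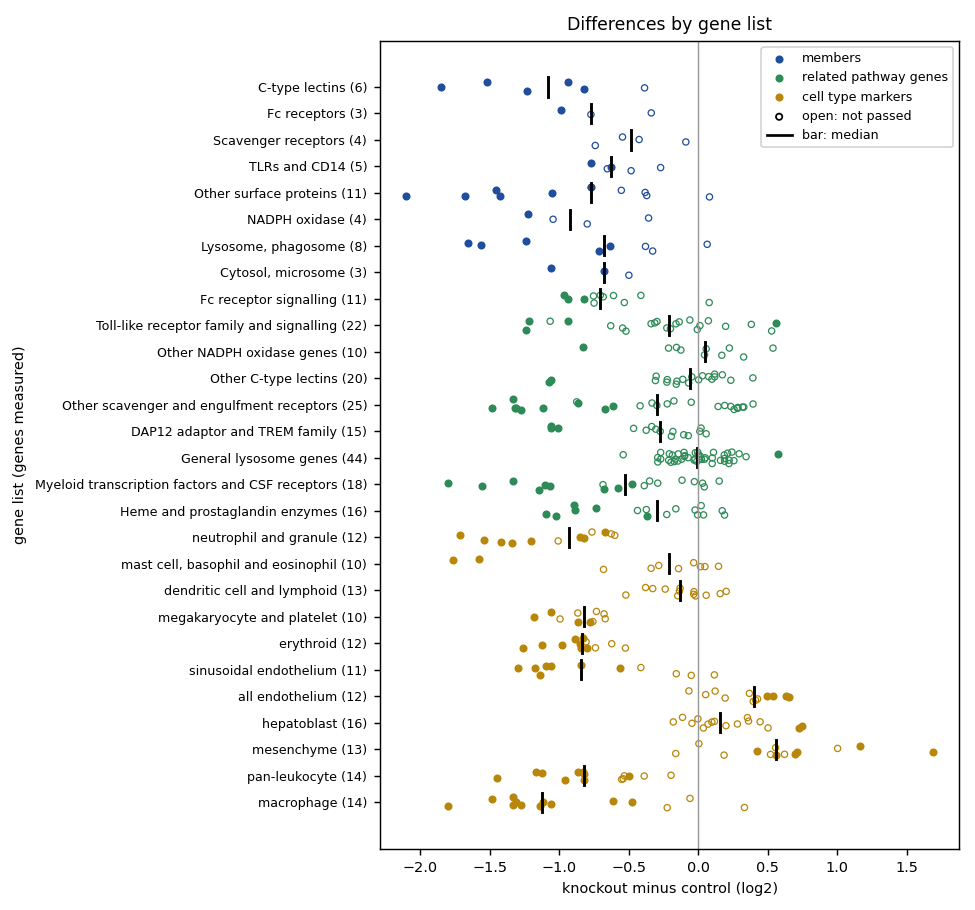
Log2 differences (labelled knockout minus control, x axis) of single genes in the 8 functional groups (blue), 9 lists of related genes (green) and 11 lists of cell type markers (gold); filled points passed the test, open ones did not, and bars are medians. The medians of all 8 groups lie below 0, that of general lysosome genes at −0.01, that of sinusoidal endothelium at −0.84, and those of genes of all endothelium, hepatoblasts and mesenchyme above 0.

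Markers of other cells moved too, and their part in the differences above was not tested. Of 14 macrophage markers outside the list, 11 fell and 0 rose by limma (1 at an unadjusted p of 0.05; median −1.13), and their summed linear level was 4442 to 4902 in controls and 2837 to 3368 in the labelled knockouts. Mrc1, Marco and Timd4 led them by p, and Mrc1 also stands in the lectin and sinusoidal endothelium lists and Marco and Timd4 in that of scavenger receptors, so these lists are not independent. Of 14 pan-leukocyte genes 9 fell (median −0.82; summed level 8454 to 9398 against 4795 to 6928), led by Cd53 (−1.45), Ptprc (−1.16) and Cd52 (−1.12). Neutrophil and granule genes fell in 8 of 12 cases (median −0.93; 2627 to 3849 against 892 to 1655), led by S100a9 (−1.20), Ms4a3 (−1.72) and Ctsg (−0.67). Several of the 44, such as Clec12a, Cybb and Cd14, are also expressed by neutrophils and monocytes.

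Among other blood lineages, erythroid genes fell in 8 of 12 cases (median −0.84; 9379 to 15825 against 6752 to 7437), led by Tal1 (−0.98), Nfe2 (−0.89) and Epor (−0.83). Megakaryocyte and platelet genes fell in 4 of 10 cases (median −0.82; 10280 to 13274 against 4644 to 9261), led by Treml1, Gp5 (−0.87) and Gp6 (−1.18). The median of the 44 phagocyte genes was −0.76. Of 10 mast cell, basophil and eosinophil genes 2 fell, Cpa3 (−1.76) and Prg2 (−1.58), and Epx did not pass (−0.68, adjusted p = 0.0981; list median −0.21; 540 to 656 against 252 to 337). Of 13 dendritic and lymphoid genes 0 fell (2 at an unadjusted p of 0.05 by limma; median −0.13; 233 to 267 against 201 to 244), with Flt3 (−0.52, adjusted p = 0.0819), Cd74 (−0.33, adjusted p = 0.213) and Cd79b (−0.38, adjusted p = 0.258) first by p.

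Sinusoidal endothelial genes fell in 7 of 11 cases (median −0.84; 4156 to 4815 against 2063 to 2754), led by Mrc1, Gpr182 (−1.18) and Lyve1 (−1.14). Sinusoidal endothelium shares receptors with macrophages. Among them Mrc1 fell past the threshold, while Cd36, Msr1 and Tlr4 did not pass. Msr1 and Tlr4 passed with the dimmest 50% of genes left out. Genes of all endothelium rose in 4 of 12 cases (median 0.40), among them Pecam1 (0.63), Ets1 (0.49) and Cdh5 (0.53). Hepatoblast genes rose in 2 of 16, Tbx3 (0.73) and Foxa1 (0.75), with Krt18 next (0.50, adjusted p = 0.0756; median 0.16), and mesenchymal genes in 6 of 13, led by Rgs5 (1.69), Hand2 (0.71) and Col1a2 (0.70), with a median of 0.56. Values are shares of a fixed total on each array, so a lower share of blood RNA and a higher share of other RNA are not independent measurements.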

How the data were processed

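The authors deposited log2 expression values made with RMA, whose version is not stated, per the submitters' processing notes; sorted values were identical in the 6 arrays, as quantile normalisation leaves them, and ran from 2.55 to 13.9 with a median of 5.43. The chip definition used, and the build, were not given in the sources used here. Of 24479 features, 23281 had 1 gene in the platform annotation and 1198 none; 23156 took the current symbol from RefSeq (GRCm38.p6), 125 the annotation's. Where 2 features shared a gene (2 cases) the brighter was kept, leaving 23279 genes. Dim features could not be told from background, and no filter was applied; 2 of the 44 genes lay in the dimmest 25% and 16 in the dimmest 50%. The number of arrays limits the precision.

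The test was limma 3.58.1 under R 4.3.3 (lmFit and eBayes, no trend; 4 residual and 4.06 prior degrees of freedom), as labelled knockout minus control without covariates, with Benjamini-Hochberg adjustment over 23279 genes and a threshold of 0.05. The code was tested on simulated data. An exact permutation test of 3 against 3 arrays cannot go below p = 0.1 (two-sided), so none was used. Intervals are 95% intervals of the moderated fit. Per-array medians are of log2 value minus control mean, and summed levels are sums of 2 to the power of the deposited value.

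The 44 genes, the 9 related and 11 marker lists (315 genes, 298 matched; the others were not analysed here) and the alternatives were chosen with earlier results of these data known. Lists are described by counts and medians, and up to 3 genes with the smallest p in each are named; genes outside this rule are said to be so or are named by position. Same-numbered arrays did not deviate together.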

Additional observations from a re-analysis of the deposited data

How the results depend on the processing

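The 22 falls and their medians kept their direction in every fit that tested them. The count of falls among the 44 genes was 22 to 25 with limma-trend, robust eBayes, array weights, median centring, the dimmest 25% left out, or the replicate block. With the dimmest 50% left out, 28 of the 44 were tested and 23 fell, the 15 tested of the 22 and 8 more. It was 20 without genes on X and Y, where 2 of the 22 were not tested. With a sex term it was 0. The fit against control replicate 2 alone leaves 1 control, so only its differences are given. In both of these fits the median of the 44 was −0.50, against a main value of −0.76, and the group medians were −0.87 for lectins, −0.33 for scavenger receptors, −0.37 for Toll-like receptors and Cd14, −0.50 for lysosome and phagosome genes and −0.42 for cytosolic and microsomal proteins. The other group medians in both fits were −0.63 for oxidase subunits (main −0.92), −0.69 for Fc receptors (main −0.77) and −0.75 for other surface proteins. For other surface proteins the median was −0.91 with the dimmest 25% or 50% left out. It was −1.06 to −0.75 without 1 array, against a main value of −0.77. Without 1 array 2 to 21 of the 44 fell, as did 16 to 610 of all genes. Of the genes in the related and marker lists 70 fell and 14 rose in the main fit. With a sex term 0 fell and 1 rose, and without 1 array 5 to 72 fell and 1 to 17 rose. Each such fit has fewer arrays or degrees of freedom.

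With the replicate number as a block, 22 of the 44 fell, 20 of them in common with the main fit, and 6 list genes rose; same-numbered arrays correlated at −0.05, −0.01 and −0.08 in their deviations from the group means, so the numbers were not taken as pairs. The sign turned for genes that never passed: Ms4a7 read −0.0068 without labelled knockout replicate 1 (−0.0068 to 0.19 without 1 array), and Gpnmb −0.0051 with array weights, −0.14 without labelled knockout replicate 2 and −0.09 without control replicate 1 (up to 0.19 without 1 array). The cause was not tested.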
